A study of Mus musculus with 12 samples.

Results

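The TFE family and the folliculin complex were followed as 7 genes in epiblast-like cells (EpiLCs) of the mouse. The family comprises Mitf, Tfe3, Tfeb and Tfec, and the complex comprises Flcn, Fnip1 and Fnip2. These 7 genes, among 22911 listed, were chosen by name, with their measured levels and their mutant-over-control values in these data known. Their levels and differences are therefore given as a description, with no test.

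EpiLCs model the epiblast shortly after implantation and were obtained by growing embryonic stem cells (ESCs) in 2i and LIF for several passages and then in 10 ng/ml FGF2 and 20 ng/ml Activin A for 48 h. Total RNA, depleted of ribosomal RNA, was sequenced from 3 independent ESC lines for each genotype, 4 in all. Female controls were Kdm5c fl/fl and female mutants Kdm5c Δ/Δ, while male controls were Kdm5c flY and male mutants Kdm5c ΔY. Kdm5c, called Smcx in the sample labels, is X-linked and encodes a histone H3K4 demethylase, and the Δ allele lacks the exons of its catalytic domain. The labels name the strain as C57BL/6J, and the methods of the study describe the floxed allele as made on a mixed background. Some of the study's crosses used Zp3-Cre, which acts in growing oocytes, or Sox2-Cre, which acts in the epiblast, and others used neither. Sires of some crosses carried an X-linked Gfp transgene. Which ESC lines came from which crosses is not given in the sources used here. The controls carry floxed alleles, and all cells were derived on fibroblast feeders.

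TFE proteins are basic helix-loop-helix leucine zipper factors that bind CACGTG-type E-boxes as dimers with each other and switch on genes of lysosomes, autophagy and nutrient sensing. Folliculin, encoded by Flcn, works with a partner, FNIP1 or FNIP2, as a GTPase-activating protein for RagC and RagD at the lysosome. This lets mTORC1 phosphorylate TFE proteins, which are then held in the cytoplasm by 14-3-3 proteins. In mouse ESCs, the exit from naive pluripotency is known to need this complex, which keeps TFE3 out of the nucleus, where TFE3 can bind Esrrb. MITF is best known from pigment cells, TFEC from macrophages, and TFE3 and TFEB from most tissues.

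The start regions of the genes that the results turn on are shown because TFE and GATA factors act through short motifs, and the levels of Tfec, Gata4 and Gata6 are set side by side below. Each sequence is the RefSeq promoter window of 250 bases before and 50 bases after a start site, from the GRCm38.p6 table, and each matched the mm9 genome exactly at 1 place on its chromosome. The sequences are on the strand of the gene, 5′ to 3′. Capitals mark CACGTG and the GATA motif TGATAA, which was also counted with A as its opening or G as its closing letter, both read on either strand. The windows lie on mm9 at chr6:16848392-16848691 (minus strand, Tfec), chr11:54251431-54251730 (plus strand, Fnip1), chr3:79371552-79371851 (minus strand, Fnip2) and chr11:59623492-59623791 (minus strand, Flcn).
Tfec: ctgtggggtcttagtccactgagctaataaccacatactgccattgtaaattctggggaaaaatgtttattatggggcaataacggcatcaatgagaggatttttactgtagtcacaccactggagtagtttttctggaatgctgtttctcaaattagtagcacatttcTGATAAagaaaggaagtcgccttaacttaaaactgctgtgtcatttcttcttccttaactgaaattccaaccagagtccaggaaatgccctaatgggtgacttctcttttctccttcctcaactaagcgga
Fnip1: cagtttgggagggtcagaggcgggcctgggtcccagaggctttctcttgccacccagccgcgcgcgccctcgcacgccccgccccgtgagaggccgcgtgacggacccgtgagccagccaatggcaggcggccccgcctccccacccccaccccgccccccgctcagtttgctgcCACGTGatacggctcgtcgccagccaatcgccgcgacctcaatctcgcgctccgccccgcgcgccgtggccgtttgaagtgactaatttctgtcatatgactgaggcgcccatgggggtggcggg
Fnip2: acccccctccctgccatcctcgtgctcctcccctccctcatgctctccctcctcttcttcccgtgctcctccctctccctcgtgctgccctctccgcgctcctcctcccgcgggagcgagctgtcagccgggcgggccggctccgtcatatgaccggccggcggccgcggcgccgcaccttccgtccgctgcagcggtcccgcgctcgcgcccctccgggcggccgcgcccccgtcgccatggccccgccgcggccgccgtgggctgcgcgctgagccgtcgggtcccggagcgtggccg
Flcn: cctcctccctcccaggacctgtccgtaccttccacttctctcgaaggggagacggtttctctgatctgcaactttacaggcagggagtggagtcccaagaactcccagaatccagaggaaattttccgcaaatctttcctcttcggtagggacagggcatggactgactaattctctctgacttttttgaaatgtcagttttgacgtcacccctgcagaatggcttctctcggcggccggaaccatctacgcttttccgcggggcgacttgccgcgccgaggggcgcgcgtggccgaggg

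The 7 genes had 12 such windows. CACGTG stood in 1 of them, that of Fnip1, starting 75 bases before the start site, against 7.15% of the 32851 windows of all genes. The longer palindrome GTCACGTGAC, the CLEAR element of lysosomal genes, which contains CACGTG, stood in 0 of the 12 and in 0.326% of all windows. The window of Tfec held the GATA motif as TGATAA, starting 81 bases before its start site. The GATA motif stood in 29.8% of all windows and in 4 of the 12, the others being windows of Mitf (2 windows) and Tfe3 (1 window). The window of Tfec was poor in G and C (40.3%) and held 3 CG pairs, and those of Fnip1 and Fnip2 were rich (70.7 and 78.0%), with 34 and 44 CG pairs. A match is a run of letters and was not tested for binding.

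Between 5354215 and 10863314 reads per library fell on the 22808 genes whose reads could be worked out from the deposited group means. Since the tables carry no sample names, letters A to C stand for the libraries of a group, from the largest size factor to the smallest. Kdm5c RNA stood at 2315 to 2429 normalized counts in female controls, 1406 to 1505 in female mutants, 2110.05 to 2371 in male controls and 1897 to 1976 in male mutants. All mutant libraries were thus below the controls of their sex, while reads outside the deleted exons were still counted. Male control library B and male mutant library A stood apart from the others of their genotype. Chi-square per gene was 16.7 to 16.8 and 26.8 to 29.5 in pairs with them, and 1.97 to 4.42 in all other pairs. Male differences of the members are therefore also given without those 2 libraries, as are values of some other genes. This alternative was chosen after seeing the data, and not every gene that it moves is named. Adjusted p-values given for it are therefore a description. Male control libraries A and C also held 1.62 and 1.25 reads per gene on 5310 genes that were silent in most libraries, against 0.105 to 0.225 in each of the other libraries. Markers of the formative epiblast were present in all libraries. Their 8 genes summed to between 7322 and 17473 normalized counts, and Fgf5 was 124 or above in each library.

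Tfec was almost silent in female control EpiLCs and present in every other genotype. The reads on Tfec were 1, 0 and 1 in female control libraries A, B and C and 62, 63 and 59 in those of female mutants, or 1.01, 0 and 1.11 against 48.6, 53.0 and 59.6 normalized counts. The 2 female groups lay far apart. With 2 reads in all against 184, the ratio of female mutants over female controls was 74.7. Its exact 95% interval, 20.4 to 621, covers counting error only. The interval leaves out the spread between ESC lines and is no test, since Tfec was chosen with this difference known. Male reads, 46 in controls and 30 in mutants, gave a ratio of 0.55 (0.33 to 0.88) in the same way, although the male groups overlapped. On the scale of log2(normalized count + 1), used for all differences below, the female difference was 5.08 ± 0.38 (SE, n = 3 and 3).

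Tfec was read 11, 27 and 8 times in male control libraries A, B and C, or 10.97, 27.9 and 11.5 normalized counts. In male mutants, the reads were 5, 15 and 10, or 4.06, 15.2 and 10.3 normalized counts. The 2 male groups overlapped, and the lowest value of the mutants was that of library A, which stands apart. The male difference was −0.74 ± 0.59 (SE) with all libraries and 0.15 ± 0.37 (SE) without male control library B and male mutant library A, so its sign rests on these libraries. Of the silent genes, 0.377% and 0.979% had as many reads as Tfec in male control libraries A and C. All 6 male libraries were thus above all female control libraries and below all female mutant libraries in Tfec.

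**Figure D1:**
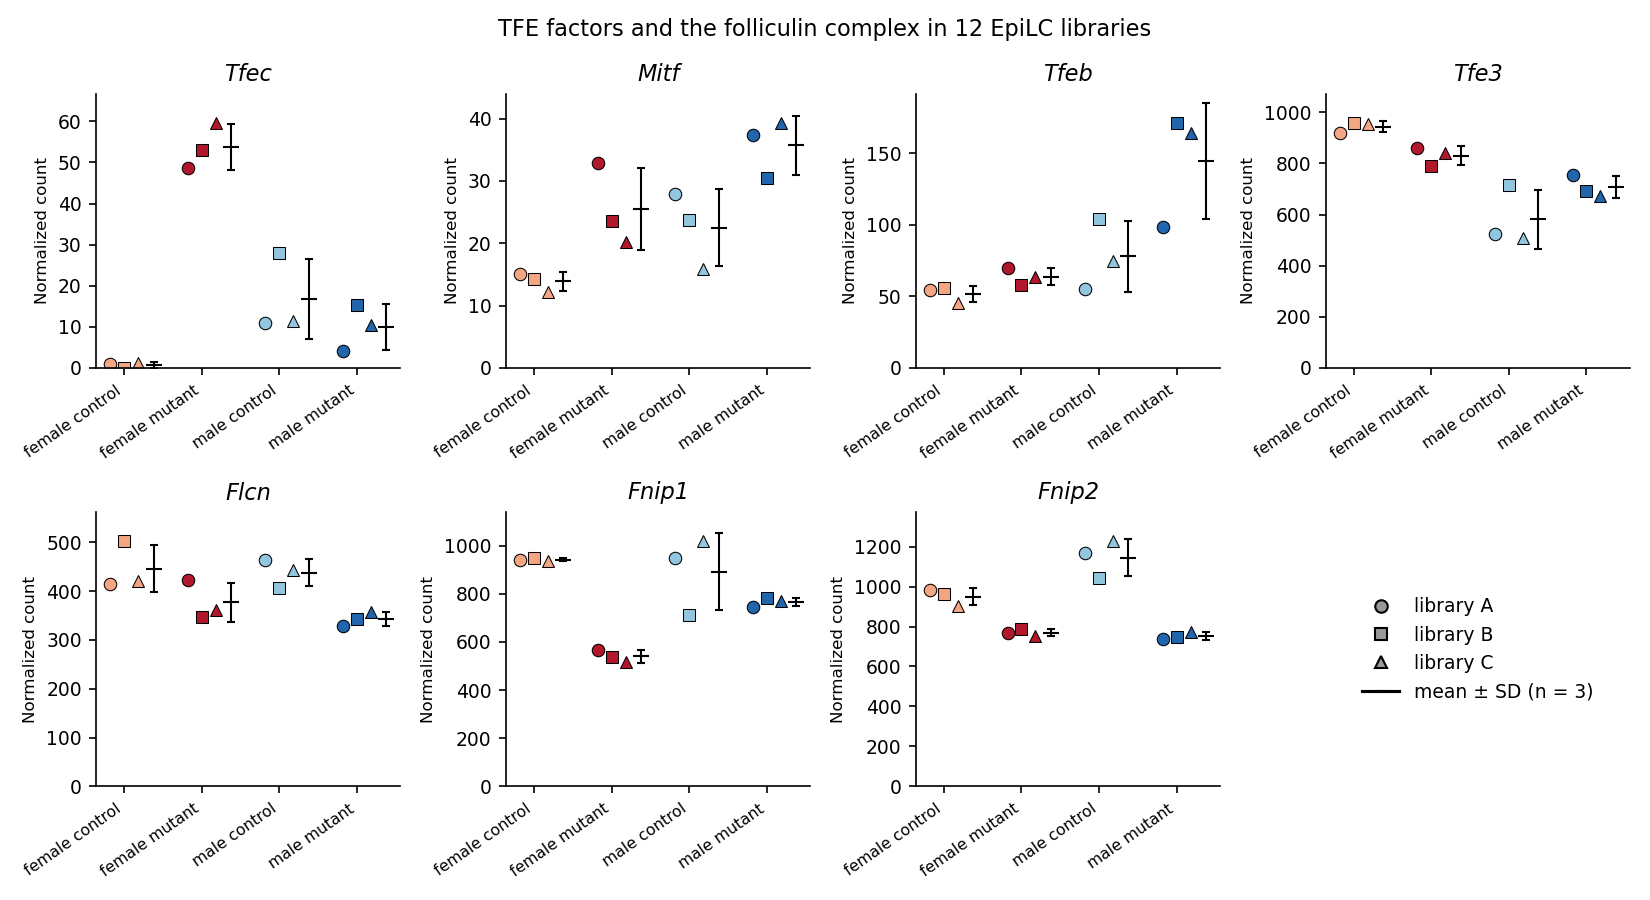
Normalized count (linear axis from 0) of each of the 7 genes in the 12 libraries, by genotype; symbols mark libraries A, B and C and the black bars the mean ± SD of 3 libraries. Tfec lies at 48.6 to 59.6 in female mutants and at 0 to 1.11 in female controls, and Fnip1 and Fnip2 lie lower in female mutants than in female controls in every library.

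Endoderm genes rose with Tfec in females. Gata4, which encodes an extraembryonic endoderm factor, stood at 60.4 to 78.9 normalized counts in female controls and 813 to 866 in female mutants. It rose by 3.63 ± 0.098 (SE) on the log2 scale (limma, adjusted p = 3.41e-15), and Gata6 rose by 4.09 ± 0.11 (adjusted p = 4.66e-15). All 10 extraembryonic endoderm markers, listed with earlier results of these data known, rose in females, against 25.4% of all genes tested. Their median log2 difference was 3.25, against 0.0037 over all genes tested. Their summed level was 439 to 494 in female controls, 3642 to 3798 in female mutants, 1788 to 2602 in male controls and 552 to 2958 in male mutants, with 552 in library A.

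In males, 0 of these 10 markers rose and 1 fell with all libraries, against 4.21% and 3.59% of all genes. Sox17, a factor of definitive and extraembryonic endoderm, fell by 2.14 ± 0.56 (SE, adjusted p = 0.0469). That call was lost in 5 of 11 alternatives. Without the 2 libraries that stand apart, Sox17 fell by 1.28 ± 0.11 (adjusted p = 0.000244), Gata6 by 0.54 and Sox7 by 0.84. In that fit, Apoa1 rose by 5.25, Hnf4a by 2.73, Ttr by 1.76, Afp by 1.41, Dab2 by 1.15 and Foxa2 by 0.54. Each of these passed an adjusted p under 0.05 in limma, as did Gata6 and Sox7. Gata4 changed by 0.057 (adjusted p = 0.609). Over all genes, that fit called 17.7% higher and 25.3% lower. Its 2 libraries were left out after seeing the data, so these calls are a description. Male mutant library A was the lowest male library in Tfec (4.06) and in Gata4 (99.0, against 371 to 419.7 in the other male libraries). Among markers of macrophages, where Tfec is also known, Ptprc, Tyrobp and Emr1 had at most 9, 3 and 2 reads in any library, while Csf1r had 8 to 161, Cd68 47 to 98, Laptm5 43 to 225 and Acp5 149 to 434. The 10 macrophage and osteoclast genes summed to 360.1 to 397 normalized counts in female controls and 433 to 536 in female mutants. In males the sum was 367 to 605 in controls and 529.96 to 941 in mutants. Of the 10, 3 rose in females, a share near the 25.4% of all genes that rose there. Csf1r, the receptor for the macrophage growth factor CSF1, rose by 1.33 ± 0.28 (SE), Laptm5 by 1.32 ± 0.14 and Ptprc by 1.28 ± 0.43 in females. The part of endoderm cells or macrophages in the Tfec values was not tested, and in bulk RNA more cells of a type and more RNA per cell cannot be told apart.

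Of the 14131 genes with a mean of at least 10, the 5 whose levels followed Tfec most closely over the 12 libraries were Fam134b (Pearson r = 0.970), 2410141K09Rik (0.968), Pdxdc1 (0.967), Adamts9 (0.966) and Gata4 (0.966). These are descriptions over 12 points that share 4 genotypes. Fam134b, a receptor for the autophagy of the endoplasmic reticulum, stood at 91.2 to 98.8 normalized counts in female controls, 297 to 312 in female mutants, 144 to 225 in male controls and 122 to 204 in male mutants. Its order of genotypes was that of Tfec. Adamts9, which encodes a secreted metalloprotease, stood at 119 to 143 in female controls, 854 to 903 in female mutants, 469 to 533 in male controls and 174 to 384 in male mutants. Gata6 reached r = 0.949 with Tfec, rank 23, and Apoa1 0.495, the lowest of the 10 endoderm markers.

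**Figure D2:**
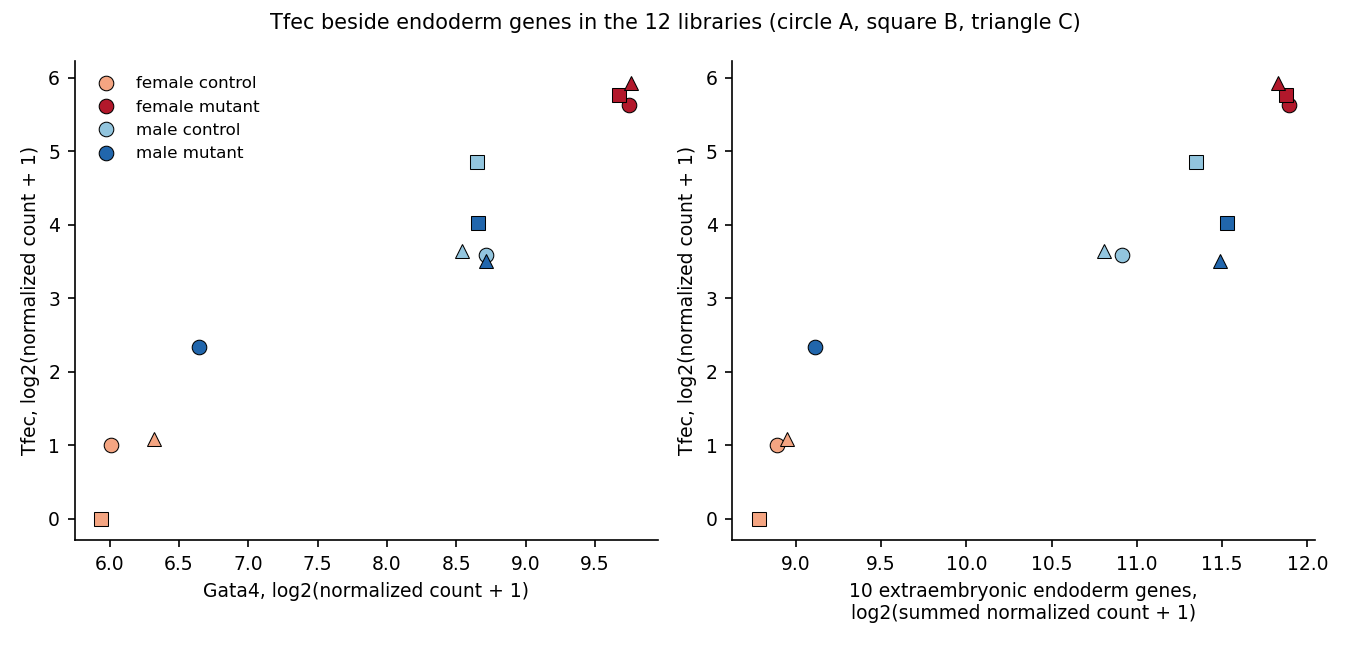
Tfec against Gata4 (left) and against the summed level of 10 extraembryonic endoderm genes (right), each as log2(normalized count + 1), with 1 point for each of the 12 libraries. The 3 female control libraries and male mutant library A lie at the low end of both axes, and the 3 female mutant libraries at the high end.

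Mitf, the pigment cell member, was low in all genotypes and higher in the mutants of both sexes. It stood at 15.1, 14.3 and 12.2 normalized counts in female control libraries A, B and C and at 32.9, 23.6 and 20.2 in those of female mutants. In males it stood at 27.9, 23.8 and 15.8 in controls and at 37.3, 30.4 and 39.3 in mutants. The groups did not overlap in either sex, but the male gap was 27.9 to 30.4 and the values rest on 11 to 46 reads per library. The log2 difference was 0.81 ± 0.29 (SE) in females and 0.67 ± 0.35 in males, and 0.69 ± 0.34 in males without the 2 libraries that stand apart. Of 11 pigment cell genes, Dct, Tyrp1 and Oca2, which define melanocytes, had at most 3, 4 and 2 reads in any library, while Tyr, which encodes tyrosinase and also defines them, had 39 to 145 reads, Pmel 14 to 49, Mc1r 36 to 139 and Rab27a 98 to 495. Their summed level was 265 to 274 normalized counts in female controls, 505 to 594 in female mutants, 476 to 748 in male controls and 382 to 579 in male mutants. Tyr rose by 0.55 ± 0.13 (SE) in females (limma, adjusted p = 0.00182). The part of pigment cells in the Mitf values was not tested.

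Tfeb was higher in the mutants of both sexes, with overlap in males. In female controls it stood at 54.3, 56.0 and 45.6 normalized counts, and in female mutants at 69.7, 58.1 and 63.7. Male controls stood at 54.8, 104 and 74.7 and male mutants at 98.2, 171 and 164. The female groups were separated by the gap from 56.0 to 58.1, and male control library B reached above male mutant library A. The log2 difference was 0.29 ± 0.17 (SE) in females and 0.89 ± 0.30 in males. Without these 2 libraries, the male difference was 1.38 ± 0.18.

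Tfe3, the X-linked and most abundant member, was lower in female mutants and higher on average in male mutants than in the controls of their sex. It stood at 918, 959 and 955 normalized counts in female controls and at 862, 789 and 841 in female mutants. In males it stood at 522, 715 and 509 in controls and at 756, 691 and 674 in mutants. Female mutants lay below female controls, while the male groups overlapped through male control library B. The log2 difference was −0.19 ± 0.059 (SE) in females and 0.30 ± 0.15 in males, or 0.40 ± 0.065 in males without the 2 libraries that stand apart.

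Female controls held 1.62 times as much Tfe3 RNA as male controls, a log2 ratio of means of 0.70. The median of that log2 ratio was 0.19 over 528 X-linked genes and 0.0097 over 13070 autosomal genes, all with a mean of at least 10. Of the X-linked genes, 83.7% had a lower ratio than Tfe3. Between the mutants the log2 ratio of Tfe3 was 0.23 and the X-linked median 0.12. The 2 sexes therefore differed less in Tfe3 among mutants than among controls.

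Per kb of the longest coding transcript, the family was mostly Tfe3 in every genotype. Tfe3 made up 91.6% ± 0.84 (SD, n = 3) of the 4 genes' RNA in female controls, 79.6% ± 0.33 in female mutants, 78.7% ± 2.5 in male controls and 73.8% ± 6.4 in male mutants. Tfec took 0.13% ± 0.11 of the family in female controls and 9.83% ± 1.1 in female mutants, where it was about level with Tfeb at 8.85% ± 0.46. In males, Tfec took 4.10% ± 1.4 in male controls and 1.94% ± 1.1 in male mutants, while Tfeb took 15.1% ± 2.3 and 21.7% ± 5.6. The shares depend on the length used. Over the union of exons, which is longer for Tfe3, the share of Tfec in female mutants was 22.4%, that of Tfeb 8.32% and that of Tfe3 66.3%.

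The summed level of the 4 factors, in normalized counts per kb of the longest coding transcript, was 304 ± 5.9 (SD) in female controls and 308 ± 14 in female mutants. The female groups overlapped in this sum, although its makeup differed. Like the shares, the sum depends on the length used. In males it was 189, 276 and 192 in male control libraries A, B and C and 275, 292 and 283 in those of male mutants. Library B of male controls lay within the range of the mutants.

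**Figure D3:**
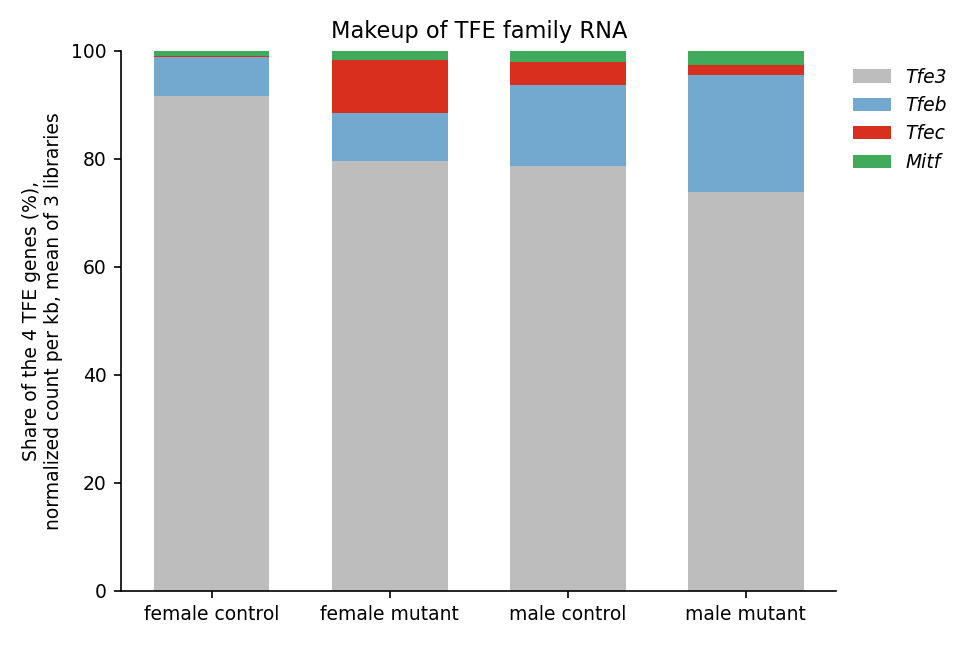
Share of Tfe3, Tfeb, Tfec and Mitf in the summed normalized count per kb of the 4 genes, in percent, as the mean of 3 libraries in each genotype. The Tfec part is 0.13% in female controls and 9.83% in female mutants.

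The 3 genes of the folliculin complex were all lower on average in the mutants of both sexes. Flcn, which encodes the GTPase-activating subunit, stood at 415, 502 and 420.2 normalized counts in female controls and at 422, 348 and 361 in female mutants. The female groups overlapped through female mutant library A. Male controls stood at 464, 407 and 443 and male mutants at 329, 343 and 357, with no overlap. The log2 difference was −0.24 ± 0.088 (SE) in females and −0.35 ± 0.12 in males, or −0.37 ± 0.076 in males without the 2 libraries that stand apart.

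Fnip1 showed the larger female difference of the 2 partners of folliculin. It stood at 941, 949 and 936 normalized counts in female controls and at 568, 536 and 515 in female mutants. The female control values spread over 936 to 949, and the mutants lay far below them. In males it stood at 948, 710.2 and 1018 in controls and at 745, 780.5 and 772 in mutants, where male control library B lay below all mutants. The log2 difference was −0.80 ± 0.060 (SE) in females and −0.20 ± 0.15 in males, or −0.34 ± 0.064 in males without the 2 libraries that stand apart.

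Fnip2, the other partner, was lower in the mutants of both sexes with no overlap. It stood at 981, 965 and 904 normalized counts in female controls and at 769, 785 and 752 in female mutants. Male controls stood at 1165, 1042 and 1226 and male mutants at 738, 747 and 775. The log2 difference was −0.30 ± 0.059 (SE) in females and −0.60 ± 0.11 in males, or −0.65 ± 0.061 in males without the 2 libraries that stand apart. Per kb, the ratio of Fnip1 over Fnip2 was 1.16 ± 0.046 (SD) in female controls and 0.82 ± 0.037 in female mutants, and 0.90 ± 0.095 in male controls and 1.19 ± 0.029 in male mutants. The balance of the partners thus went opposite ways in the 2 sexes, with no overlap between control and mutant libraries in either.

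**Figure D4:**
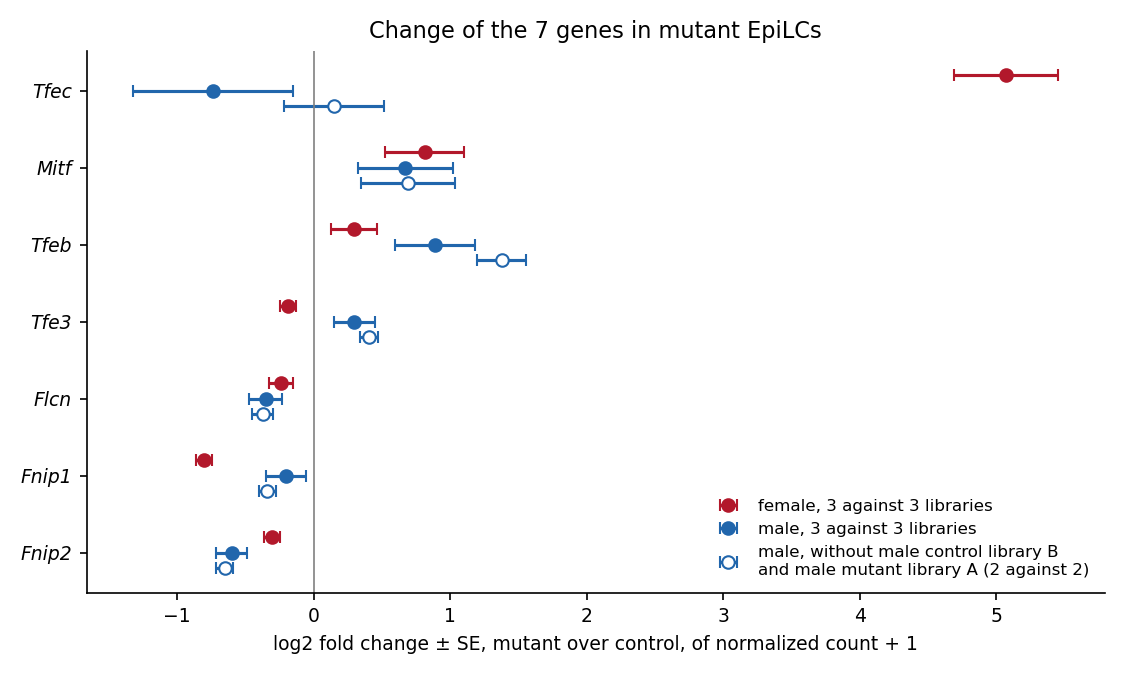
Log2 difference of mutant over control, with its SE, for the 7 genes in females (red), in males (filled blue) and in males without male control library B and male mutant library A (open blue). Tfec stands at 5.08 in females and near 0 in males without the 2 libraries, while Flcn, Fnip1 and Fnip2 lie below 0 in each fit.

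Set against all genes, the counts of members are a description, since these contrasts were used in choosing them. Differences between the sexes were likewise not tested for the members. In females, 3 members were above the controls in every mutant library (Tfec, Mitf and Tfeb) and 3 were below (Tfe3, Fnip1 and Fnip2). Over the 19572 genes tested in females, 27.6% were above and 27.2% below in this way. In males, 1 member was above (Mitf) and 2 were below (Flcn and Fnip2), against 12.7% and 13.9% of 21872 genes. Over the 12 libraries, Fnip1 ran against Tfec (Pearson r = −0.79), and Flcn ran with Fnip2 (r = 0.76), as descriptions that rest largely on differences between genotypes.

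Within female controls, the order of levels per kb of the longest coding transcript was Tfe3 (278 ± 6.5, SD), Fnip1 (151 ± 1.0), Fnip2 (130.1 ± 5.6), Flcn (129.7 ± 14), Tfeb (22.2 ± 2.4), Mitf (2.84 ± 0.30) and Tfec (0.40 ± 0.34). Fnip2 and Flcn did not differ beyond their spread. This order depends on the length used. Over the union of exons, Fnip1 stood at 132, Fnip2 at 114, Flcn at 103 and Tfe3 at 102 in female controls. In female mutants, Tfec (30.2 ± 3.1) passed Mitf (5.24 ± 1.3) and stood beside Tfeb (27.3 ± 2.5), the last 2 neighbours being within their spread. Over the union of exons, Tfec stayed at 30.2 and Tfeb stood at 11.3. In male controls, Tfe3 (172 ± 34), Fnip2 (157 ± 13), Fnip1 (143 ± 26) and Flcn (127 ± 8.3) each lay within the spread of the next. Over the union of exons, these stood at 62.9, 137, 125 and 101. In male mutants, Fnip1 (122 ± 2.9) stood above Fnip2 (103 ± 2.6) and Flcn (99.7 ± 4.1), and Mitf (7.31 ± 0.96) and Tfec (5.55 ± 3.1) were within their spread.

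The genes around the folliculin complex and the TFE factors were taken from 9 lists, and 142 of 146 listed genes were tested. In females, 42 rose and 42 fell, 29.6% in each direction. Over all genes, 25.4% rose and 24.7% fell in females (limma, adjusted p under 0.05). With a minimum mean of 10, the order turned, with 30.7% of listed genes called in each direction against 33.4% higher and 32.5% lower over all genes. The median log2 difference was −0.0027 over the lists and 0.0037 over all genes. In males, 7 rose and 4 fell, against 4.21% higher and 3.59% lower over all genes (6.98% and 5.30% at a mean of at least 10). The male median was 0.0049 over the lists and −0.16 over all genes, or 0.0023 over genes with a mean of at least 10. Without the 2 male libraries that stand apart, 41 of the listed genes rose and 25 fell (28.9% and 17.6%), against 17.7% and 25.3% over all genes. The controls left there, male control libraries A and C, held 1.62 and 1.25 reads per silent gene, against 0.105 to 0.225 in the other libraries. No share at a mean of at least 10 was taken, so whether listed genes differed from genes of like level was not tested. All 18 named male calls, which include marker genes, held in that fit with the same sign. That is a description, since the 18 were picked by their calls in these same data. The fit called 9352 of 21777 genes, against 1705 with all libraries. Females and males differed in the change of 36 listed genes (25.4%), against 21.2% of all genes, in the test of the sex by genotype interaction. With a minimum mean of 10, that test called 4783 of 14132 genes, a larger share than 25.4%.

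Rag GTPases and the Ragulator, which anchor mTORC1 at the lysosome, gave 9 calls among 10 genes in females, 5 higher and 4 lower. Rragd, a substrate of folliculin and a known TFE target, rose from 805 ± 40 (SD) to 1059 ± 36 normalized counts in females, a log2 difference of 0.40 ± 0.060 (SE, adjusted p = 2.12e-05). Its partner substrate Rragc fell by 0.29 ± 0.068 (adjusted p = 0.00151), and Rragb fell by 0.46 ± 0.075. Lamtor3, a Ragulator subunit, rose by 0.39 ± 0.070 in females. Slc38a9, the lysosomal arginine sensor, fell by 0.84 ± 0.10 in females and by 0.87 ± 0.16 in males (adjusted p = 0.0134), the male call being lost in 4 of 11 alternatives. In males, Rragd (−0.49 ± 0.34, adjusted p = 0.373), Rragc (−0.25 ± 0.12, adjusted p = 0.227) and Rragb (−1.07 ± 0.45, adjusted p = 0.179) did not pass with all libraries. Rragd was high in male control library B (1355) and male mutant library A (1105), against 712 and 744 in the other controls and 496 and 469 in the other mutants, and Rragb was high in the latter library (413, against 106 and 108). Without both libraries, Rragd fell by 0.59 ± 0.070 (adjusted p = 0.00102), Rragc fell by 0.33 ± 0.078 (adjusted p = 0.0154) and Rragb fell by 1.56 ± 0.10 (adjusted p = 0.000107).

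GATOR complexes and amino acid sensors, which set the state of the Rag GTPases, gave 4 higher and 6 lower of 16 in females. Itfg2, a subunit of KICSTOR, rose by 0.97 ± 0.11 (SE) and Sesn2, the leucine sensor Sestrin2, by 0.67 ± 0.070. Gatsl2, also called Castor2, fell by 0.98 ± 0.13. Nprl2, a GATOR1 subunit, fell by 0.53 ± 0.22 (adjusted p = 0.0498), a call lost in 6 of 10 alternatives. In males, 1 of 16 rose and 0 fell. Mios, a GATOR2 subunit, went from 314 ± 16 (SD) to 606 ± 49 normalized counts in males, a log2 difference of 0.94 ± 0.12 (SE, adjusted p = 0.00292) that passed in all 11 alternatives.

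Among the calls in the pathway lists, the largest fall was that of a gene of the group of mTORC1 and its TSC inhibitor. Deptor, which encodes an inhibitory subunit of mTOR complexes, stood at 1730.3, 1658 and 1571 normalized counts in female controls and 377, 405 and 376 in female mutants. It fell by 2.096 ± 0.062 (SE, adjusted p = 1.03e-14). In males it stood at 741 to 865 in controls and at 685 to 758 in mutants (log2 difference −0.17 ± 0.12, adjusted p = 0.367). Tsc1 fell by 0.52 ± 0.064 in females, and Akt1s1 and Mlst8, further mTORC1 subunits, rose by 0.32 ± 0.063 and 0.30 ± 0.088. In all, 2 of 10 rose and 4 fell in females. In males 0 of 10 passed in limma, 0 had an unadjusted p under 0.05, and 0 passed in limma voom.

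AMPK, the energy sensor bound by FNIP proteins, gave 3 higher and 2 lower of 10 in females. Prkaa2, a catalytic subunit, rose from 202 ± 7.0 (SD) to 514 ± 20 normalized counts in females (log2 difference 1.35 ± 0.074, SE) and fell from 428 ± 80 to 212 ± 44 in males. The male log2 difference was −1.02 ± 0.20 (adjusted p = 0.0164), and the call was lost in 2 of 11 alternatives. Prkab1, a regulatory subunit, rose by 0.87 ± 0.079 in females, where Ppargc1b, a coactivator of mitochondrial genes, fell by 0.70 ± 0.13. Stk11, the upstream kinase LKB1, fell by 0.15 ± 0.061 (adjusted p = 0.0495), a call lost in 8 of 10 alternatives.

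Genes that act on the place of TFE proteins in the cell gave 4 higher and 2 lower of 12 in females and 1 higher of 12 in males. Ywhaq and Ywhag, which encode 14-3-3 proteins, rose by 0.72 ± 0.052 (SE) and 0.48 ± 0.052 in females. Ywhag also rose by 0.57 ± 0.15 in males (adjusted p = 0.0436, lost in 4 of 11 alternatives). Ppp3cb, a catalytic subunit of calcineurin, fell by 0.30 ± 0.060 in females, and the kinase gene Map4k3 fell by 0.23 ± 0.070. Ywhae and Ywhaz were above the level at which reads could be worked out.

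The lysosomal lists moved in both directions. Of the V-ATPase, the proton pump of the lysosome, 5 of 18 rose and 6 fell in females, and 1 rose and 1 fell in males. Atp6v0a2 rose in females (0.73 ± 0.084, SE) and in males (0.64 ± 0.15, adjusted p = 0.0352), and Atp6v1g1 fell in females (by 0.76 ± 0.055) and in males (by 0.58 ± 0.10, adjusted p = 0.012). Atp6v1h rose by 0.61 ± 0.062 in females, and Atp6v0c fell by 0.95 ± 0.23. Atp6v0c has near-identical copies in the genome, so its count of uniquely mapped reads is uncertain. The male calls of Atp6v0a2 and Atp6v1g1 were lost in 5 and 3 of 11 alternatives.

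Of 32 lysosomal enzymes, 10 rose and 9 fell in females and 1 rose in males. Manba, which encodes beta-mannosidase, stood at 182 ± 22 (SD) in female controls and 658 ± 12 in female mutants, and at 154 ± 46 in male controls and 537 ± 130 in male mutants. It rose by 1.86 ± 0.084 (SE, adjusted p = 3.95e-12) and by 1.81 ± 0.24 (adjusted p = 0.00319), and both calls were kept in all alternatives. The peptidase gene Tpp1 rose by 0.69 ± 0.068 in females. Naglu and Arsa, which encode a heparan sulfate and a sulfatide hydrolase, fell by 1.72 ± 0.18 and 1.41 ± 0.11.

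Of 16 genes of the lysosomal membrane and lumen transport, 4 rose and 4 fell in females. Cd63, a tetraspanin, rose by 0.64 ± 0.056 (SE) and Ctns, the cystine transporter, by 0.59 ± 0.12 in females. Lamp2 fell by 0.90 ± 0.057 and Npc2, the cholesterol carrier, by 0.62 ± 0.066. Gpnmb, a much used TFE target, was low, at 23.6 ± 5.1 (SD) in female controls and 31.6 ± 0.64 in female mutants, with a log2 difference of 0.43 ± 0.25 (SE, adjusted p = 0.163). In males its log2 difference was −0.75 ± 0.49 (adjusted p = 0.362), or −1.40 ± 0.33 (adjusted p = 0.0154) without the 2 libraries that stand apart.

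Of 18 autophagy genes, 5 rose and 5 fell in females, and 3 rose and 0 fell in males. Gabarapl2, an ATG8 family gene, rose by 0.91 ± 0.080 (SE) in females and 1.06 ± 0.22 in males (adjusted p = 0.0199). Ulk1, the initiating kinase, rose by 0.45 ± 0.069 in females and 0.87 ± 0.17 in males (adjusted p = 0.0174). The male calls of both were lost in 4 of 11 alternatives. Wipi1 and Atg9b, which act in autophagosome formation, fell by 1.17 ± 0.17 and 0.84 ± 0.16 in females.

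**Figure D5:**
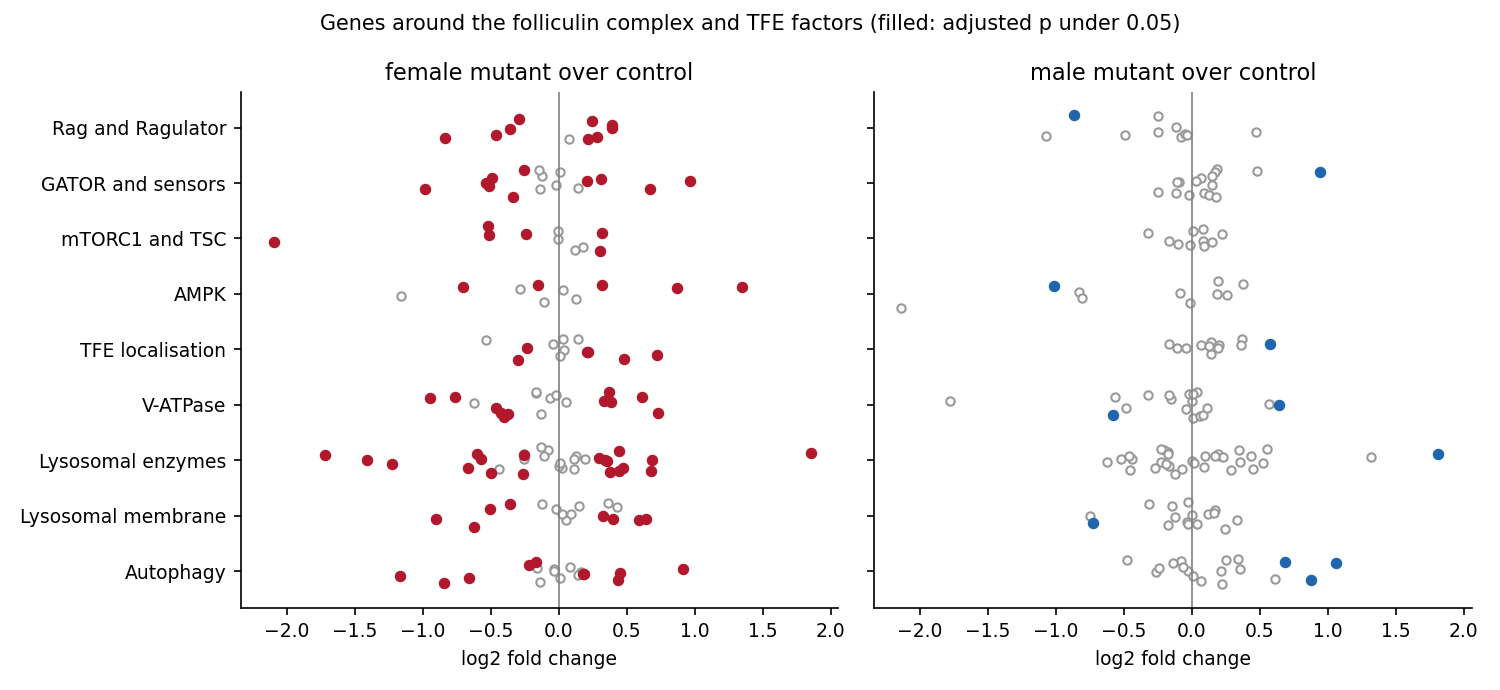
Log2 difference of mutant over control for the 142 tested genes of the 9 lists, in females (left) and males (right); filled points passed an adjusted p under 0.05 in limma, and the vertical scatter within a list has no meaning. Filled points lie on both sides of 0 in every list in females, with 42 higher and 42 lower in all.

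Esrrb, the naive pluripotency gene bound by TFE3 in ESCs, rose in the mutants of both sexes. It stood at 234 to 241 normalized counts in female controls and 936 to 1020.3 in female mutants, a log2 difference of 2.05 ± 0.065 (SE, adjusted p = 3.22e-14). Male controls stood at 261 to 673 and male mutants at 887 to 1907, a log2 difference of 2.03 ± 0.39 (adjusted p = 0.0151, lost in 3 of 11 alternatives), or 2.84 ± 0.061 without the 2 libraries that stand apart. The interaction test of sex and genotype gave a difference of −0.02 (adjusted p = 0.983). Whether the RNA levels of the folliculin complex or of TFE genes have a part in this was not tested.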

How the data were processed

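Total RNA of EpiLCs from 3 ESC lines per genotype was depleted of ribosomal RNA. The authors mapped single-end reads to mm9 with TopHat2 2.1.0, per the study's methods, and kept uniquely mapped reads; Bowtie2 2.2.6.0, DESeq and Cuffdiff are also in the submitters' processing notes, and the gene annotation is not given in the sources used here. The 2 deposited tables, 1 per sex, give the signal of 22911 genes as the mean normalized count of each genotype, a normalized count being a library's reads over its size factor and the mean being taken over 3 libraries. Their columns of overall means, fold changes, p-values and adjusted p-values hold the authors' own comparison and were not used.

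Since a mean combines whole reads of 3 libraries, each scaled by a fixed factor, the reads themselves were solved for. Genes with means no higher than 10000 had exactly 1 solution (22808 genes in all 12 libraries, 86 to 91.4% of normalized reads per genotype). A sum of all reads of a library was therefore not available, and intervals cover counting error only. The solver and the fits were tested on simulated data. Limma 3.58.1 (R 4.3.3; lmFit, eBayes with trend) was fitted to log2(normalized count + 1) within each sex, and over all 12 libraries for the sex by genotype interaction, with Benjamini-Hochberg adjustment over all genes with reads and 0.05 as the threshold. The design was written for these recovered reads. Differences of the members are mean differences on this scale with their SE. Alternatives were median-of-ratios size factors, a pseudocount of 0.1, a minimum mean of 10, limma voom, and leaving out each library. That the libraries come from separate ESC lines is stated in the methods.

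Genes were placed by symbol or synonym on GENCODE vM1 (mm9; 21347 of 22911 genes), whose longest coding transcripts gave lengths. RefSeq promoter windows (GRCm38.p6) were found for 7 of 7 members and matched exactly to mm9. The 7 members, the 9 pathway lists and the 6 lists of markers (pigment cells, naive pluripotency, formative epiblast, macrophages and osteoclasts, fibroblast feeders, extraembryonic endoderm) were chosen with earlier results of these data known. Named genes were all members, Gpnmb, Rragc, Rragd and Esrrb; in each list and sex, the 2 largest rises and the 2 largest falls that passed the threshold at a mean of 10 or more; and the 5 genes most correlated with Tfec. Bmt2 and Kics2 of the lists were not analysed here. The male value of 1 gene that this rule names is not reported here. Kdm5c, Fgf5, Apoa1, the macrophage markers without a call and the pigment genes Tyr, Pmel, Dct, Tyrp1 and Oca2 were named after their values were seen. Scripts ran in Python 3.11.15 (matplotlib 3.10.9, numba 0.67.0, scipy 1.17.1, pandas 2.3.3, numpy 2.4.6).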

Additional observations from a re-analysis of the deposited data

Results flagged for a closer look

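For each named gene outside the members whose mutant-over-control change differed between the sexes in the interaction test (limma, adjusted p under 0.05), the male minus the female log2 difference is given here; the 7 members were not tested. Around the folliculin complex it was −0.64 for Lamtor3, −0.99 for Itfg2, −0.64 for Sesn2, 1.46 for Gatsl2, 0.73 for Mios, 1.92 for Deptor, 0.42 for Tsc1, −2.36 for Prkaa2, −0.96 for Prkab1 and −0.53 for Ywhaq. In the lysosome and autophagy lists it was −0.53 for Atp6v1h, 1.51 for Atp6v0c, −0.90 for Tpp1, 1.45 for Naglu, 1.18 for Arsa, −0.91 for Ctns, 1.07 for Lamp2, 0.44 for Npc2 and 1.09 for Atg9b. Prkaa2 rose in females and fell in males, and Lamtor3, Itfg2, Sesn2, Prkab1, Tpp1 and Ctns rose in females without a male call.

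Among the marker genes, the male minus the female difference was −1.68 for Rab27a, −1.95 for Mc1r, −0.81 for Tbx3, 0.90 for Nanog, −1.68 for Dnmt3a, −1.49 for Dnmt3b, −1.36 for Pou3f1, −2.08 for Otx2, −1.88 for Itgam, 6.32 for Postn, 5.55 for Col1a1, −5.56 for Gata6, −4.26 for Gata4 and −5.65 for Sox17. Samples of 3 libraries per genotype were not searched for single deviating values.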

How the results depend on the processing

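No paired analysis was possible because the deposited tables tie no value to a numbered sample, so no fit with the replicate number as a block could be made. In females, 9799 genes and 84 listed genes were called, and all alternatives stayed within 1.5 times of these counts (8811 to 9808 and 75 to 86). In males, 1705 genes and 11 listed genes were called, and leaving out a library gave 333 to 4691 and 2 to 29. Without male control library A, B or C the counts of genes were 413, 4691 and 333 and of listed genes 3, 21 and 2, and without male mutant library A, B or C they were 4310, 595 and 527 and 29, 6 and 4. Without both male control library B and male mutant library A, 9352 genes (3844 higher, 5508 lower) and 66 listed genes were called, the interaction test called 10014 genes against 4675 with all libraries (3554 to 7334 when 1 library was left out, the highest without male control library B), and the male log2 difference was 1.38 for Tfeb and 0.15 for Tfec, with the sign of Tfec turned. The share of called male genes that were higher was 54.0% with all libraries, 30.6% without male control library B and 41.1% without both libraries. The cause of these shifts was not tested. Leaving out 1 library kept the sign of every member in each sex, with 4.73 to 5.27 for Tfec in females and −1.10 to −0.27 in males. The female difference of Tfec depends on the pseudocount because the controls have 2 reads in all: it was 6.71 with a pseudocount of 0.1 and 6.25 as the log2 ratio of the group means. For single named genes, 704 of the values under the alternatives stayed on their side of the threshold, 63 lost a call, 4 gained one and 0 changed direction. Depth limits Tfec in female controls and in males, where it had 5 to 27 reads per library. It also limits Mitf throughout, with 11 to 46 reads per library.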

Other observations

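Markers of the naive state, outside the TFE family, were higher in the mutants of both sexes. Of 10 naive pluripotency genes, 8 rose and 1 fell in females, and 5 rose in males with all libraries. Over all genes, 25.4% rose and 24.7% fell in females, and 4.21% rose and 3.59% fell in males. In females Klf4 rose by 2.99 ± 0.12 (SE) and Tbx3 by 2.57 ± 0.092, while Nanog fell by 0.90 ± 0.053. In males Klf2 rose by 2.21 ± 0.36 (limma, adjusted p = 0.0079, lost in 1 of 11 alternatives) beside Esrrb. Of 8 formative epiblast genes, 5 rose and 2 fell in females and 3 fell in males. Dnmt3a and Dnmt3b, the de novo DNA methyltransferases, rose by 1.60 ± 0.052 and 0.83 ± 0.053 in females, and Sall2 and Pou3f1 fell by 0.51 ± 0.069 and 0.17 ± 0.062, the latter losing its call in 4 of 10 alternatives. In males Otx2, a formative regulator, fell by 1.72 ± 0.15 (adjusted p = 0.000508) and Pou3f1 fell by 1.53 ± 0.38 (adjusted p = 0.0382, lost in 5 of 11 alternatives).

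Fibroblast genes went opposite ways in the sexes. Of 8, 4 fell in females and 5 rose in males. Col1a1 stood at 1290.2 ± 34 (SD) normalized counts in female controls and 281 ± 2.8 in female mutants, and at 225 ± 26 in male controls and 2332 ± 395 in male mutants. It fell by 2.19 ± 0.060 (SE) in females and rose by 3.36 ± 0.15 in males, and Postn fell by 3.17 ± 0.33 and rose by 3.14 ± 0.48. Dcn and Lum, which also mark fibroblasts, had at most 8 and 4 reads in any library. Of 10 pigment cell genes tested in females, 3 rose and 1 fell, against 25.4% and 24.7% of all genes. Among those that rose were Rab27a (by 1.40 ± 0.10) and Mc1r (by 1.35 ± 0.17). In males 0 of 11 passed in limma, 4 had an unadjusted p under 0.05, and 0 passed in limma voom. Of the macrophage and osteoclast genes, Itgam fell by 1.76 ± 0.37 in males (adjusted p = 0.0232, lost in 4 of 11 alternatives).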
